A study of Sus scrofa with 6 samples.

Results

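Sialyltransferases are the Golgi enzymes that cap glycans of proteins and lipids with sialic acid. A set of 9 of their genes was followed: ST3GAL5, ST3GAL1, ST3GAL2, ST3GAL3, ST3GAL4, ST3GAL6, ST6GAL1, ST8SIA1 and ST6GALNAC2. They were chosen by symbol around ST3GAL5, which had itself been picked because its values stood apart between the study's groups. By symbol, 8 of the 9 had a row among the 14262 genes of the table. No row carried the symbol ST3GAL2, which is not analysed here. It may lie among the 2285 genes without a symbol. Throughout, a gene is called measured if its symbol was found. The samples were endometrium, the inner lining of the uterus, on day 12 of gestation, taken from 6 sows of Erhualian, a breed of pig (Sus scrofa) from China. The groups were 3 high prolific sows of parity 5, 8 and 8 (high 1, high 2 and high 3) and 3 low prolific sows of parity 7, 7 and 5 (low 1, low 2 and low 3). Each library came from 1 sow. The labels name the uterus as source and endometrium as tissue, and no sort of cells, so each value is an average over luminal and glandular epithelium, stroma, vessels and leukocytes.

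The family is named by the bond it makes. ST3 enzymes link sialic acid to one carbon of a galactose, ST6 enzymes to another carbon of galactose (ST6GAL) or of N-acetylgalactosamine (ST6GALNAC), and ST8 enzymes to a sialic acid already in place. ST3GAL5 makes GM3, the first ganglioside, by adding sialic acid to lactosylceramide, and all later gangliosides of the main series start from GM3. Sialylated glycans contribute to the negative charge of the uterine surface and are ligands of selectins and of the sialic acid-binding receptors of leukocytes. On day 12 the pig conceptus elongates and begins to attach to the luminal epithelium.

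All values are normalized read counts, with mean ± SD over 3 sows per group. Gene length is not taken out of this scale, so levels are compared between sows and never between genes. The columns summed to between 22663087 (high 2) and 24270245 (low 2), totals that the normalization sets, so the sequencing depth is unknown. Each log2 fold change is the high minus the low prolific group on the scale of log2(value + 1), given with the moderated standard error of a fit across all genes. That fit with limma called 0 of the 14262 genes (0%) at an adjusted p under 0.05, against 1129 (7.92%) at an unadjusted p under 0.05. Thus none of the differences given here passed a test over all genes. For the 8 listed genes the fold changes are a description with no test, since the choice of the set rested on this same contrast. On the first principal component of all genes (43.6% of the variance) low 2 (-43.5) and low 3 (-44.2) stood apart from the other 4 sows (1.52 to 40.9), so values without them are given for many of the genes below. Markers of the labelled tissue were present in every sow, with EPCAM of epithelium at 7896 or more and the summed stromal markers at 487579 or more.

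ST3GAL5, the GM3 synthase, was at 193, 189 and 195 in high 1, high 2 and high 3 and at 509, 716 and 371 in low 1, low 2 and low 3. All 3 high prolific sows lay together below all 3 low prolific sows, which spread widely. The lowest low prolific sow was at 1.90 times the highest high prolific sow. The group means were 193 ± 3.38 and 532 ± 173 (SD, n = 3). The log2 fold change, from the means on the log2 scale, was -1.41 ± 0.24 (SE), a 2.66-fold lower level in high prolific sows. A difference at least as far below 0 was found in 1.27% of all genes. Within the high group the coefficient of variation was 1.75%, and 2.23% of all genes had a smaller one there. Within the low group it was 32.6%, against a median of 16.3% over all genes. The standard error above does not rest on that narrow high group alone, because the fit pools the spread of both groups. That pooled spread, taken as equal in both groups, is then drawn by limma toward that of genes of like level. Between the sows of parity 5, ST3GAL5 was at 193 (high 1) and 371 (low 3). With parity as a covariate its log2 fold change was -1.48. In bulk tissue, fewer cells of a type that carries ST3GAL5 and less of its RNA per cell cannot be told apart.

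**Figure D1:**
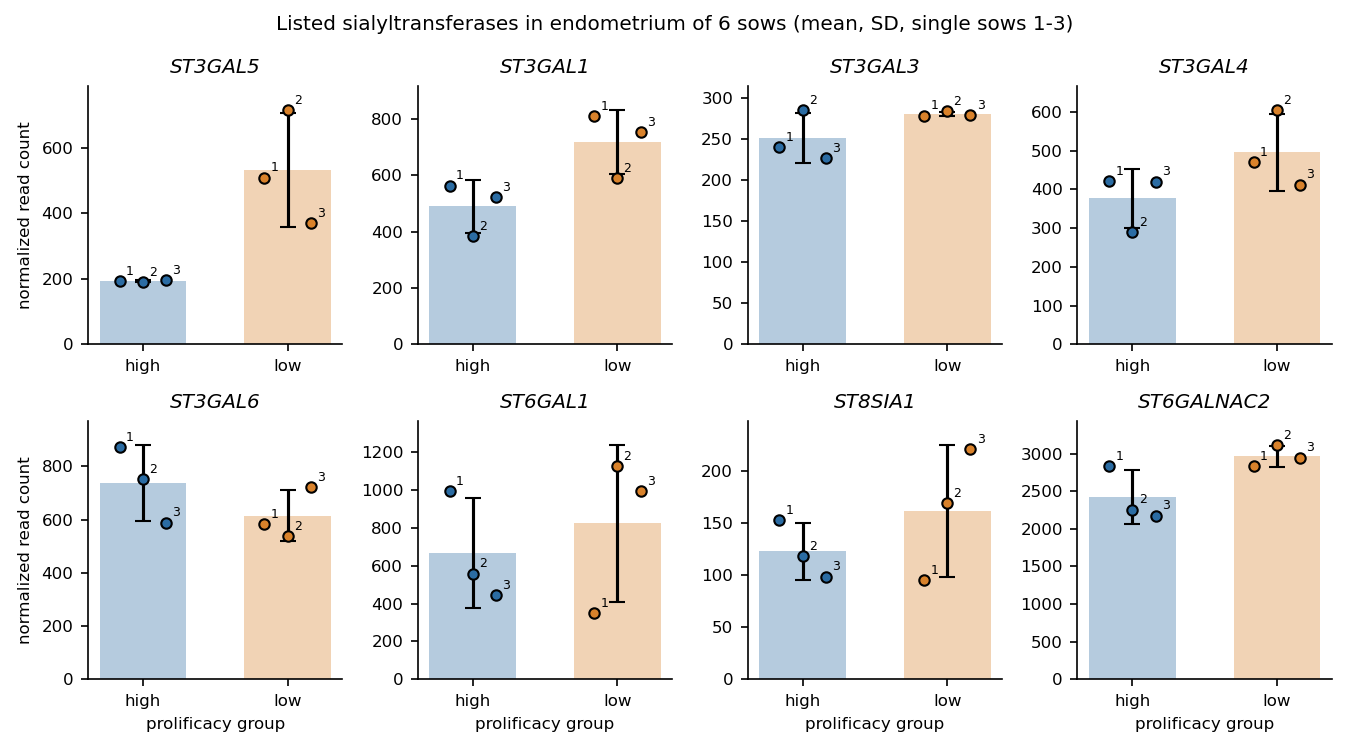
Normalized read counts (linear axes from 0) of the 8 measured sialyltransferases of the set by group, blue for high and orange for low prolific. Each bar is the mean over 3 sows with its SD, and each numbered point is a sow. ST3GAL5 shows 3 high prolific sows between 189 and 195 and low prolific sows from 371 to 716, while ST6GAL1 and ST8SIA1 overlap widely.

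The other ST3GAL genes differed less between the groups. ST3GAL1, which caps the core disaccharide of mucin-type O-glycans, was at 564, 384 and 524 in high 1 to high 3 and at 811, 591 and 753 in low 1 to low 3. Its groups did not overlap, but high 1 lay just under low 2, and the log2 fold change was -0.56 ± 0.20 (SE). It was -0.39 without high 2 and -0.74 when low 2 and low 3 were both dropped. ST3GAL4, which caps lactosamine chains and contributes to selectin ligands, was at 421, 289 and 420 against 469, 605 and 412. High 2 was the lowest and low 2 the highest, and the other 4 sows lay close together between 412 and 469. Its log2 fold change of -0.40 ± 0.22 (SE) went to -0.22 without high 2 and to -0.24 without low 2.

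ST3GAL3, which also caps lactosamine chains, was at 240, 285 and 227 against 278, 284 and 279. The low prolific sows were nearly equal (CV 1.06%), and high 2 lay above all of them, so the groups overlapped (log2 fold change -0.17 ± 0.14, SE). Without high 2 the value was -0.26 and without high 3 it was -0.098. ST3GAL6, another lactosamine enzyme of selectin ligands, was the 1 measured gene of the set with a higher mean in high prolific sows. It was at 873, 753 and 589 against 584, 539 and 722, with a log2 fold change of 0.26 ± 0.19 (SE). That value was 0.13 without high 1, 0.17 without low 2 and 0.41 without high 3. Low 3 lay above high 3, so these groups overlapped too.

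ST6GALNAC2, which adds sialic acid to the N-acetylgalactosamine at the base of O-glycans, was at 2835, 2256 and 2176 against 2837, 3119 and 2949. The groups did not overlap by the narrowest margin, 2835 in high 1 against 2837 in low 1. The log2 fold change was -0.30 ± 0.13 (SE). Leaving out single sows moved it from -0.42 to -0.23.

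ST6GAL1, the main enzyme that caps N-glycans in the ST6 linkage, followed the sows rather than the groups. It was at 997, 558 and 446 in high 1 to high 3 and at 350, 1128 and 995 in low 1 to low 3. High 1, low 2 and low 3 stood near each other and high 2, high 3 and low 1 were lower. The log2 fold change of -0.22 ± 0.51 (SE) turned to 0.090 without low 2 and to 0.84 when low 3 was dropped as well. It also turned, to 0.00086, with parity as a covariate. ST8SIA1, the GD3 synthase that adds a sialic acid to GM3, was at 153, 118 and 98.6 against 95.2, 169 and 221. The same 3 sows were the highest. Its log2 fold change of -0.33 ± 0.35 (SE) was -0.67 without low 1 and -0.066 without low 3, and it turned to 0.35 once low 2 and low 3 were both dropped.

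In all, 7 of the 8 measured genes had a lower mean log2 level in high prolific sows, and the median of their log2 fold changes was -0.32. Over all genes 50.4% lay lower and the median was -0.0024. The groups did not overlap in 3 of the 8, ST3GAL5, ST3GAL1 and ST6GALNAC2, each with the high prolific sows below. Over all genes 6.32% lay so, and since the set was built on this contrast nothing is read from the count. Without ST3GAL5, 6 of 7 lay lower with a median of -0.30.

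**Figure D2:**
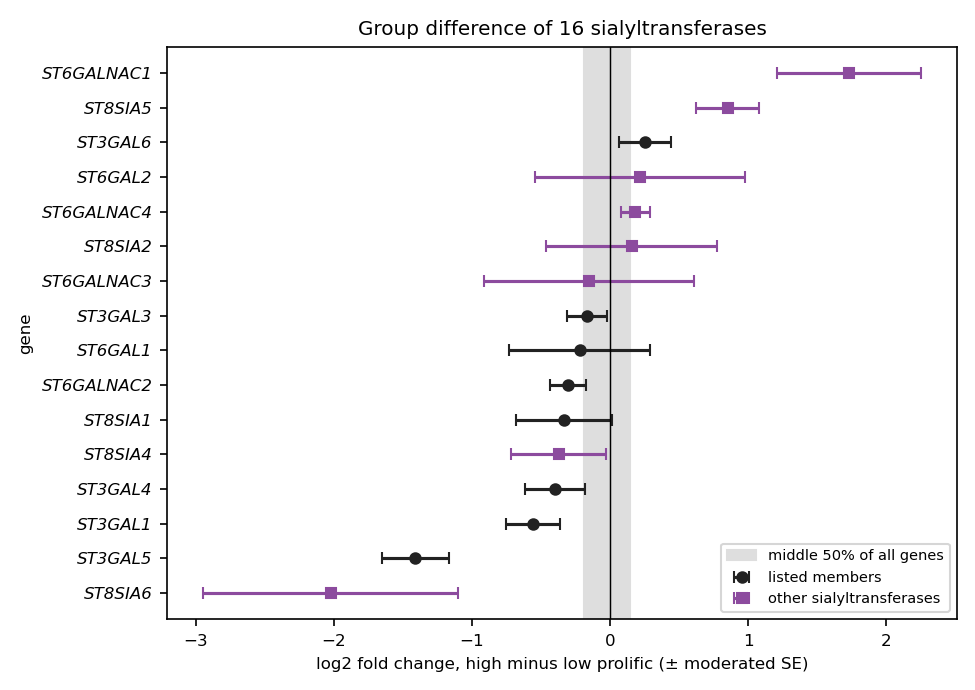
Log2 fold change, high minus low prolific, with its moderated standard error (bars) for the 8 measured genes of the set (black circles) and 8 further sialyltransferases (purple squares). The grey band is the middle 50% of all 14262 genes. ST3GAL5 at -1.41 and ST6GALNAC1 at 1.73 lie far on either side of 0, and ST8SIA6 at -2.02 has a standard error of 0.92.

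The further sialyltransferases were taken as a list of 11, of which 8 were measured. Of these, 5 had a higher and 3 a lower level in the high prolific group, and their median log2 fold change was 0.17. None passed over all genes (smallest adjusted p = 0.619 with limma), and 2 did not overlap between groups, both higher in high prolific sows, where 7.18% of all genes lay so. ST8SIA5, which adds sialic acids to the late gangliosides, was at 139, 174 and 218 in high 1 to high 3 and at 85.6, 111 and 93.3 in low 1 to low 3. Every high prolific sow lay above every low prolific sow, with the lowest at 1.26 times the highest of the other group. Its log2 fold change was 0.85 ± 0.23 (SE), opposite in sign to that of ST3GAL5. Leaving out single sows moved it from 0.69 to 1.01.

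ST6GALNAC1, which makes the sialyl-Tn antigen of mucins, had the largest mean difference toward high prolific sows of the 16 measured sialyltransferases. It was at 1874, 5026 and 5195 against 783, 846 and 2007. High 2 and high 3 were far above the rest, whereas high 1 lay under low 3, so the groups overlapped. The log2 fold change was 1.73 ± 0.52 (SE, adjusted p = 0.619 with limma), and it was 2.22 without high 1. High 2 and high 3 are also the 2 sows of parity 8, which no low prolific sow shared. The parity covariate left the log2 fold change at 1.64, but cannot separate the group from parity 8, which only high prolific sows had. Between the sows of the only parity found in both groups, ST6GALNAC1 was at 1874 (high 1) and 2007 (low 3). In the RefSeq gene table of Sscrofa11.1, ST6GALNAC1 and ST6GALNAC2 are neighbours with no other protein-coding gene between them, and their mean differences had opposite signs.

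ST8SIA6, which adds sialic acid to sialylated O-glycans, was at 23.9, 5.89 and 28.4 against 113, 150 and 18.7. Low 1 and low 2 were high and low 3 lay below high 1 and high 3, so its log2 fold change of -2.02 ± 0.92 (SE) was -2.93 without low 3 and -1.37 without high 2. ST6GALNAC4, which also acts on O-glycans, was at 3455, 3153 and 3095 against 3038, 2599 and 2908 and did not overlap (log2 fold change 0.18 ± 0.11, SE). That value was 0.12 without low 2 and 0.089 with low 2 and low 3 dropped. The polysialic acid synthases ST8SIA4 (108 to 181 in high and 135 to 291 in low prolific sows) and ST8SIA2 (32.3 to 135 and 34.3 to 81.5) overlapped. ST6GALNAC3 (12.6 to 49.8 and 13.9 to 77.8) and ST6GAL2 (11.7 to 34.6 and 8.33 to 56.8) were low in all sows and overlapped widely. Each of these 4 turned its direction under at least 1 way of leaving out sows.

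**Figure D3:**
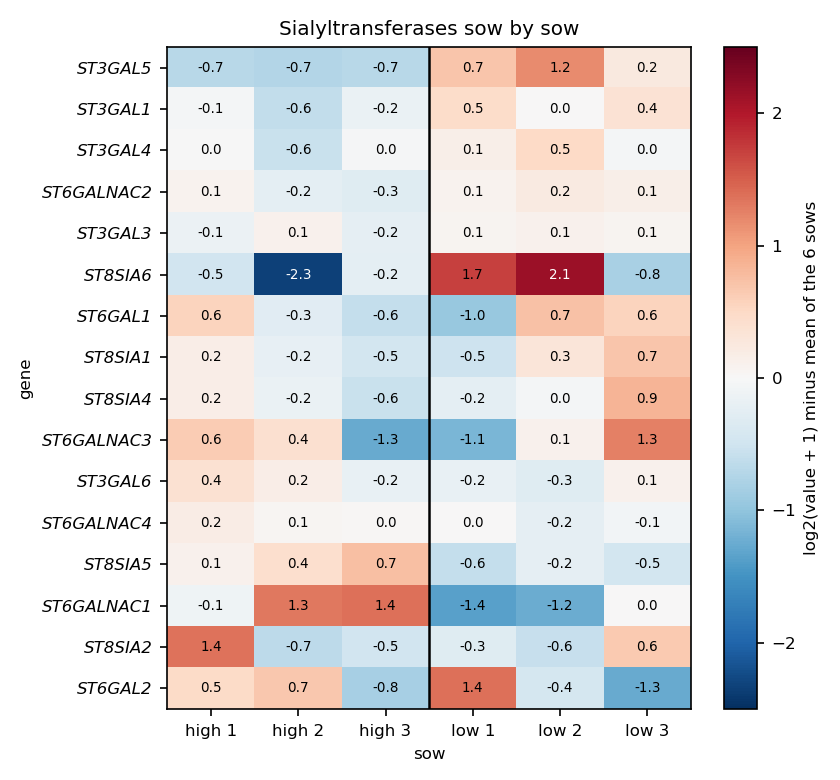
Heat map of 16 sialyltransferases (rows) in the 6 sows (columns), where each cell shows how far log2(value + 1) lies from the mean of that gene (red above, blue below). ST3GAL5 is blue in every high and red in every low prolific sow, whereas ST6GAL1, ST8SIA1 and ST8SIA4 have their 3 highest values in high 1, low 2 and low 3.

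The sow pattern of ST6GAL1 and ST8SIA1 was set beside markers of cell types. The summed level of the 5 measured endothelial markers (of 8 listed) was 13249 in high 1, 14897 in low 2 and 20799 in low 3, against 9608, 8443 and 11214 in high 2, high 3 and low 1. High 1, low 2 and low 3 were thus the upper 3 sows, as for ST6GAL1, ST8SIA1 and ST8SIA4. Its members CDH5, KDR and TIE1 had the same upper 3 sows, with CDH5 at 3209, 3057 and 4507 there and at most 2177 in the others. Its other members did not. PECAM1 was higher in low 1 (4211) than in high 1 (3201), and TEK was higher in high 2 (1268) than in low 2 (1189). The summed stromal markers (7 of 8) also had these upper 3 sows, with 667574, 794241 and 750779 against at most 585025, and so did the collagens COL1A1, COL1A2 and COL3A1, which carry that sum. The members PDGFRA, PDGFRB, LUM and DCN did not, as with PDGFRA at 5921 in high 2 and 4970 in low 2. The part of vessels and stroma in the ST6GAL1, ST8SIA1 and ST8SIA4 levels was not tested.

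Several markers of other cells lay on the same side as ST3GAL5. Against 6.32% of all genes, 3 of the 7 measured epithelial markers (of 8) did not overlap and lay lower in all high prolific sows. These were CDH1 (17387 ± 1853 against 22777 ± 3161), CLDN3 (5574 ± 285 against 7206 ± 1414) and CLDN4 (6692 ± 1381 against 10474 ± 3220). The other 4, EPCAM, KRT7, KRT8 and KRT18, overlapped with log2 fold changes above 0, and so did the epithelial sum, at 70930 to 74369 in high and 59466 to 83553 in low prolific sows. Of the 5 measured smooth muscle markers (of 6), 4 did not overlap and lay lower in all high prolific sows, against 6.32% of all genes. The median log2 fold change of that list was -0.77. ACTA2 was at 4131 ± 1212 against 7997 ± 1778, DES at 331 ± 193 against 604 ± 85.4, CNN1 at 630 ± 265 against 1013 ± 250 and MYL9 at 1225 ± 297 against 1987 ± 372. MYH11, which carries most of that sum, went the other way (15669 ± 5474 against 12638 ± 4651), and the sum overlapped at 18869 to 25966 and 18823 to 27437. Of the 5 measured endothelial markers 1 did not overlap, PECAM1 (2740 ± 428 against 5133 ± 1102). Of the 7 measured stromal markers 2 did not, PDGFRB and LUM. All 3 again had the high prolific sows below, as 6.32% of all genes did. The other members of both lists overlapped, as did both sums, and PDGFRA had a log2 fold change above 0 (0.056). The summed neutrophil markers (5 of 8) did not overlap, at 349 to 9205 in high and 11710 to 23335 in low prolific sows. Their members did not go together, since S100A8 was at 5414 and 10857 in low 2 and low 3 but at 85.2 in low 1, where MMP8 was at 11243. ST3GAL5 in low 1 was 509, between low 3 and low 2. The part of any of these cells in the ST3GAL5 difference was not tested. Sums for macrophages and dendritic cells (9 of 9), T and NK cells (9 of 11) and B and plasma cells (5 of 8) overlapped between the groups. Of the members, 8 of 9 for T and NK cells lay higher in high prolific sows (median log2 fold change 0.43). So did 4 of 5 for B and plasma cells (0.30) and 4 of 9 for macrophages and dendritic cells (-0.030). In these lists only CD2 and TNFRSF17 did not overlap, both higher in high prolific sows, where 7.18% of all genes lay so.

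Among the glycosphingolipid synthesis genes around ST3GAL5, listed without sialyltransferases, the groups did not overlap in 1 of 13, where 13.5% of all genes did not. Of 13 measured synthesis genes (of 13 listed), 8 lay higher and 5 lower, with a median log2 fold change of 0.042, and none passed (smallest adjusted p = 0.619 with limma). B4GALT5, which makes the lactosylceramide that ST3GAL5 uses, was at 1755, 1507 and 2129 against 2344, 2199 and 2042, so high 3 lay above low 3 (log2 fold change -0.30 ± 0.15, SE, and -0.18 without high 2). B4GALT6, which also makes lactosylceramide and lies outside the naming rule, was at 50.3 ± 10.8 against 32.5 ± 14.3. Its groups overlapped, with a log2 fold change of opposite sign (0.69 ± 0.39, SE). A4GALT, which takes lactosylceramide into the globo branch, was at 5802, 4434 and 2864 against 2812, 1918 and 3709 (0.63 ± 0.33, SE), and its groups overlapped. The A4GALT value was 0.39 without high 1 and 0.38 without low 2. UGT8, which makes galactosylceramide and so the start of the sulfatide branch, was at 929, 989 and 989 against 779, 586 and 729. Here each high prolific sow lay above each low prolific sow, with a log2 fold change of 0.48 ± 0.13 (SE, adjusted p = 0.619 with limma), and 0.31 with low 2 and low 3 dropped. B3GALNT1, the globoside synthase, was at 836 ± 278 against 1193 ± 289. On the log2 scale its difference was -0.53, or -0.34 if high 2 was dropped and -0.86 if low 2 and low 3 were.

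Outside the naming rule, and picked after their values were seen for their place next to GM3, UGCG and B4GALNT1 were close between the groups. UGCG, which makes glucosylceramide, was at 913, 768 and 907 against 873, 795 and 1060. B4GALNT1, which turns GM3 into GM2, was at 190, 125 and 208 against 155, 179 and 167. Within a sow, the ratio of ST3GAL5 to UGCG was therefore 0.212, 0.246 and 0.215 in high 1 to high 3 and 0.583, 0.900 and 0.350 in low 1 to low 3. The ratio to B4GALNT1 was 1.02, 1.51 and 0.939 against 3.28, 3.99 and 2.22, and both ratios restate the ST3GAL5 difference, since their other gene was close between the groups. The ratio to ST8SIA1 lay between 1.27 and 1.98 in high prolific sows, against 5.35, 4.23 and 1.68 in low 1 to low 3, where low 3 fell among the high prolific sows. These ratios carry the length of each gene and are read across sows only.

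**Figure D4:**
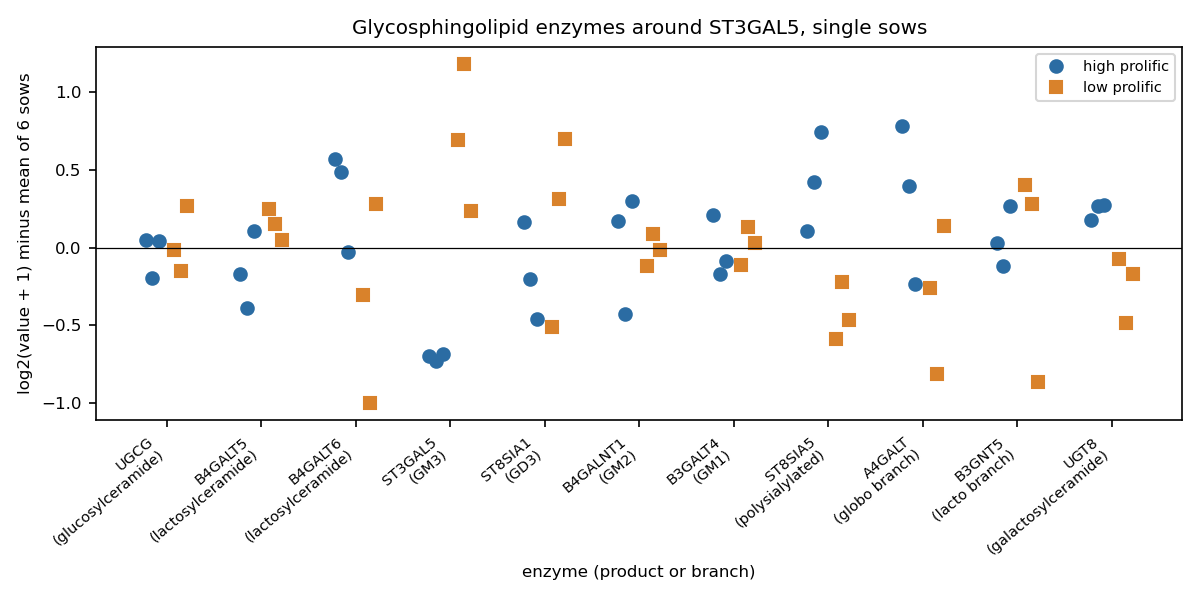
Enzymes of glycosphingolipid synthesis in route order (x axis), each with log2(value + 1) minus its mean over 6 sows (y axis) for high (blue circles) and low (orange squares) prolific sows. ST3GAL5, ST8SIA5 and UGT8 show groups that do not overlap, ST3GAL5 with the high prolific sows below and the other 2 with them above.

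Breakdown of glycosphingolipids was measured by 12 genes (of 12 listed), 4 higher and 8 lower, with a median of -0.056. The groups overlapped in each of the 12, where 13.5% of all genes did not overlap. GLB1, the lysosomal beta-galactosidase that acts on GM1, was at 8293 in high 1 and at 2451 and 2416 in high 2 and high 3, against 6062, 6981 and 7917 in low 1 to low 3. High 1 was thus like the low prolific sows. The log2 fold change of -0.92 ± 0.48 (SE) was -1.51 without high 1, -0.62 without high 3 and -0.62 with parity as a covariate. High 2 and high 3 are the sows of parity 8, which no low prolific sow shared, so group and parity 8 cannot be separated for GLB1. PSAP, the precursor of the saposins, had its highest values in low 3 (91752) and high 1 (65918). Its log2 fold change of -0.45 was -0.80 without high 1, -0.69 without low 1, -0.23 without high 3 and -0.092 without low 3, and it turned to 0.016 with low 2 and low 3 dropped. GBA2, a glucosylceramidase, was at 2613 ± 132 against 2464 ± 40.7. Its log2 difference was 0.083, or 0.055 if high 1 was dropped.

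The supply of CMP-sialic acid, the donor that all sialyltransferases share, was measured by 10 genes (of 11 listed), of which 3 lay higher and 7 lower, with a median log2 fold change of -0.016. GNPNAT1, which makes N-acetylglucosamine phosphate upstream of sialic acid, was at 941, 866 and 938 against 1108, 1313 and 1222, without overlap. Its log2 fold change was -0.41 ± 0.11 (SE, adjusted p = 0.619 with limma). RENBP, an epimerase that turns N-acetylmannosamine to N-acetylglucosamine, was at 556, 807 and 748 against 508, 493 and 544, without overlap and in the other direction (0.43 ± 0.16, SE). PGM3 (2730 ± 386 against 2296 ± 153), of the same hexosamine route, and NANS (3297 ± 195 against 3692 ± 311), the sialic acid synthase, overlapped between groups. The log2 fold change of PGM3, 0.24, was 0.16 without high 3, and that of NANS, -0.16, was -0.097 without low 2 and -0.051 with low 2 and low 3 dropped. Release of sialic acid was covered by 6 genes (of 8 listed), 3 higher and 3 lower, and the groups overlapped in all 6, where 13.5% of all genes did not. SLC17A5, the lysosomal sialic acid exporter, was at 474, 551 and 599 against 581, 1012 and 760 (log2 fold change -0.50 ± 0.22, SE), with -0.30 when low 2 was dropped and -0.11 when low 3 was dropped as well. The sialidase NEU1 was at 1030 ± 145 against 1162 ± 114, and its partner CTSA, which protects it in the lysosome, at 1027 ± 156 against 1307 ± 438. CASD1, the sialic acid O-acetyltransferase, was at 1275 ± 48.6 against 1103 ± 215. NEU1 had a log2 fold change of -0.18, which ran from -0.29 without high 1 to -0.099 without low 3. CTSA had -0.30, which was -0.55 without low 1, -0.17 without high 3 and -0.058 without low 3, and turned to 0.18 with low 2 and low 3 dropped. CASD1 had 0.23, which was 0.34 without low 1 and 0.061 without low 2, and -0.0039 with low 2 and low 3 dropped.

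Enzymes that build the acceptors of sialic acid were described by 2 lists. For mucin-type O-glycans 11 of 17 listed genes were measured, 3 of them higher and 8 lower in the high group, and the median log2 fold change was -0.22. The groups did not overlap in 5 of the 11, against 13.5% of all genes, and none passed (smallest adjusted p = 0.629 with limma). GCNT3, which branches mucin O-glycans, was at 366, 204 and 397 against 515, 946 and 446 (log2 fold change -0.96 ± 0.37, SE), and it was -0.63 without low 2. GALNT12, which starts O-glycans, was at 184, 159 and 153 against 218, 353 and 206 (-0.60 ± 0.24, SE) and -0.36 without low 2. GALNT1, of the same function, was at 9599, 7054 and 9433 against 9644, 13849 and 10345, a gap that is narrow between high 1 and low 1. Its log2 fold change of -0.37 was -0.23 without high 2, -0.21 without low 2 and -0.16 with low 2 and low 3 dropped. The remaining one, GCNT1, which makes the core 2 branch and lies outside the naming rule, was named after its values were seen, at 3847, 3294 and 3652 against 3962, 6636 and 4118. GALNT10 went the other way, at 814, 836 and 968 against 796, 611 and 748. Its log2 difference was 0.29, or 0.17 if low 2 was dropped and 0.13 if low 3 was dropped as well. For N-glycan branching and lactosamine chains, 15 of 18 were measured, 6 higher and 9 lower with a median of -0.032, and all 15 overlapped, where 13.5% of all genes did not. The first 4 by p were MGAT5 (1936 ± 119 against 2347 ± 307) and MGAT4A (3356 ± 1056 against 4834 ± 1615), which branch N-glycans, and B3GNT2 (1253 ± 247 against 2331 ± 1297) and B3GNT7 (656 ± 108 against 1125 ± 662), which extend lactosamine chains. B3GNT2 was at 3807 in low 2, and its log2 fold change of -0.77 went to -0.35 without that sow and to -0.15 when low 3 was dropped too. That of B3GNT7, -0.61, was -0.17 without low 2 and -1.07 without low 1, and it turned to 0.30 with low 2 and low 3 dropped. That of MGAT4A, -0.53, was -0.27 without high 2 and -0.27 without low 3, and that of MGAT5, -0.27, was -0.18 without low 2. With low 2 and low 3 both dropped they were -0.20 and -0.076.

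Receptors that bind sialylated glycans were measured in 5 of 11 cases, 3 higher and 2 lower, with none past the test (smallest adjusted p = 0.619 with limma). SELP, P-selectin of endothelium and platelets, was at 297, 228 and 245 against 460, 314 and 441, without overlap (log2 fold change -0.65 ± 0.20, SE). CD22 (95.5 ± 20.1 against 68.8 ± 20.1) and SIGLEC1 (221 ± 16.7 against 207 ± 90.1), lectins of B cells and macrophages, overlapped between groups. The log2 fold change of CD22, 0.49, was 0.23 without low 2. That of SIGLEC1, 0.19, was 0.51 without low 3 and turned to -0.15 without low 2.

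The genes most like ST3GAL5 over the 6 sows were found by Pearson's r of log2(value + 1) among 11336 genes with a symbol and a mean of at least 50. The 6 highest were SNX4 (r = 0.995), a sorting nexin of recycling endosomes, C6 (0.991), a complement component, AK6 (0.988), a nuclear adenylate kinase, TMEM45A (0.986), RPAP3 (0.983) and ADAMTSL5 (0.979). The 6 lowest were MZT1 (-0.991), of the microtubule organizing ring, PPFIA2 (-0.986), TMC1 (-0.986), CCNH (-0.984), CSAD (-0.982), an enzyme of taurine synthesis, and LRRC45 (-0.980). None of the 12 overlapped between groups (13.5% of all genes did not), which the choice by likeness to ST3GAL5 fixes. Low 2 was the highest sow for the first 6 and the lowest for the other 6. SNX4, for example, was at 2776, 2807 and 2956 in high 1 to high 3 and at 3990, 4614 and 3624 in low 1 to low 3. With 6 sows and this many genes, high values of r are frequent: 144 genes (1.27%) at 0.9 or more and 177 (1.56%) at -0.9 or less. No other sialyltransferase was among the 12.

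**Figure D5:**
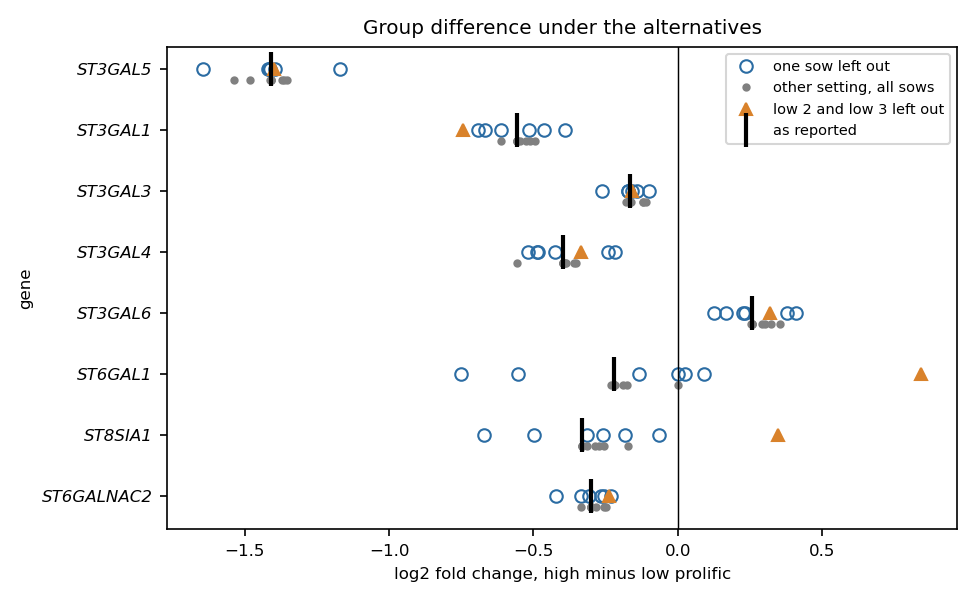
Log2 fold change, high minus low prolific (x axis), of the 8 measured genes of the set (y axis) as reported (black bar), with each single sow left out (blue circles), with low 2 and low 3 left out (orange triangle) and under other settings with all sows (grey points). ST3GAL5 runs from -1.64 to -1.17 and ST6GAL1 from -0.75 to 0.84.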

How the data were processed

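Endometrial RNA of 6 sows, 3 per group, was measured by RNA-seq, 1 library per sow. The deposited table holds 1 normalized count signal per gene and library, made by the authors. Subread 1.6, featureCounts and edgeR are named per the submitters' processing notes, with no role or setting. Aligner settings, build, annotation and strand setting are not given in the sources used here. Thus overlapping or antisense genes cannot be told apart and no coordinates are printed. Of values under 20, between 40.6% and 100% per library lay within 0.1 of whole multiples of 1 step, and a count model was therefore not applied. All 14262 genes held at least 10 in at least 3 libraries, so lower genes had been removed before deposit. Symbols matched 11977 genes.

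High and low prolific sows were set against each other by limma 3.58.1 (R 4.3.3), fitted to log2(value + 1) with variance trend, robust moderation and Benjamini-Hochberg adjustment over all genes at 0.05, two-sided. The procedure was tested on simulated data. Marker sums add the normalized values of the measured members. Named were the set, all measured sialyltransferases, at most 4 genes by p of each pathway list and the 6 genes with the highest and the 6 with the lowest correlation with ST3GAL5. Any further gene was picked with its values known. The labels name no batch. Results on 2 pathway genes that the rule took are not reported here. Members and lists were chosen with earlier results of these data known. A planned comparison of proteins was not run, as sequences were not used here. The alternatives were other pseudocounts (0.5 and 10), a mean of at least 200, scaled or quantile-normalized columns, other moderation, library weights, parity, a replicate block and left-out sows.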

Additional observations from a re-analysis of the deposited data

How the results depend on the processing

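ST3GAL5 kept its direction under all 17 alternatives, with a log2 fold change from -1.64 (without low 3) to -1.17 (without low 2), -1.40 without both low 2 and low 3 and -1.48 with parity. Where groups do not overlap, as for ST3GAL5, leaving out sows cannot turn the direction, so that part was fixed in advance. Of the 8 measured genes of the set, 6 kept their direction throughout, and ST6GAL1 and ST8SIA1 did not (0.84 and 0.35 without both low 2 and low 3). Of the other 8 sialyltransferases 4 did, as did 22 of 28 named pathway genes, and 5 of the other 6 turned without both low 2 and low 3. The count of genes called was 0 with all sows under every setting and ranged from 0 to 4 with single sows left out (4 without low 1, 1 without low 2). The count at an unadjusted p under 0.05 lay between 466 and 1872 with single sows left out, the lowest without high 2 and the highest without low 1. It was 632 when low 2 was dropped and 631 when low 2 and low 3 both were. The causes were not tested. With the replicate number as a block the unadjusted count was 615 and 0 genes were called. Same-numbered sows correlated at -0.38, -0.16 and -0.36 in their deviations from the group means. The labels name separate sows and state no pairing, so the main fit used none. Whether the numbers mark any matching of sows cannot be told from these values. Among the sialyltransferases and the pathway genes taken by p, requiring a mean of 200 removed ST8SIA1 and 7 others. Scaling to equal sums moved the median of all genes to 0.042. Depth is unknown, so no counting error is given for low genes such as ST8SIA6.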

Other observations

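The genes beside ST3GAL5 in the RefSeq gene table of Sscrofa11.1 overlapped between the groups where measured, and 13.5% of all genes did not overlap. POLR1A, the catalytic subunit of RNA polymerase I, was at 454, 551 and 654 in high 1 to high 3 and at 606, 544 and 440 in low 1 to low 3 (log2 fold change 0.057 ± 0.19, SE). ATOH8, a transcription factor gene on the other side, was at 217, 225 and 161 against 126, 162 and 192 (0.34 ± 0.23, SE). PTCD3 (0.076 ± 0.18) and IMMT (0.017 ± 0.089), farther along, had log2 fold changes within 1 standard error of 0. GNLY, granulysin of cytotoxic lymphocytes, which follows ATOH8, was at 140, 76.6 and 82.0 against 128, 103 and 156, with a lower mean in high prolific sows as for ST3GAL5 (-0.41 ± 0.30, SE).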
